A study of Mus musculus with 29 samples.

Results

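The genes Slc1a2, Slc1a3, Aqp4, Gja1, Gjb6, Glul, S100b, Aldh1l1, Slc7a10 and Ntsr2 are markers of mature astrocytes, and they are described here in the hypothalamus from the first postnatal week to old age. They were picked as known astrocyte markers, with earlier results of these data known, were found in the tables by symbol, and make up 10 of the 24499 gene symbols counted. All 10 had enough counts to be tested, among 16916 tested genes. The mice were C57BL/6 of the wild-type genotype, and every one is labelled male. The 9 ages were postnatal day 5 (P5), 3, 4 and 5 weeks, and 2, 6, 12, 18 and 24 months. The tissue is labelled hypothalamus, although most sample titles hold th, tha or thal, and came from singly housed animals, with nothing to say whether each library is 1 mouse, so that p-values measure the spread between libraries. In all, 28 libraries were used: 4 at 4 weeks and 4 at 5 weeks, 2 at the oldest age of 24 months, and 3 at each of the remaining ages. No treatment separates the groups, so age is the only factor the labels give.

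Astrocytes surround synapses and blood vessels and keep the fluid around neurons constant. They take up glutamate through the transporters EAAT2 (Slc1a2) and EAAT1 (Slc1a3), turn it into glutamine with glutamine synthetase (Glul), spread potassium and metabolites through gap junctions of connexin 43 (Gja1) and connexin 30 (Gjb6), and move water through aquaporin 4 (Aqp4) at the endfeet on vessels. These functions are known to be acquired as radial glia and young astrocytes mature after birth. The other members are a neurotensin receptor that marks astrocytes (Ntsr2), a transporter of D-serine, glycine and other small neutral amino acids (Slc7a10), a calcium-binding protein (S100b) and a folate enzyme widely used as a pan-astrocyte marker (Aldh1l1).

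Levels are in CPM, a gene's counts relative to the library's total of gene counts, scaled between libraries by the trimmed mean of M-values. Depth was 24661631 to 39783779 gene counts, so that 3 counts made 0.075 to 0.12 CPM, and the lowest count of any member in any library was 120. RNA of 30 further astrocyte genes, among them Aldoc, Sox9 and Mlc1, was present in every library at a summed 4595 to 12780 CPM. At P5, replicates 1 and 2 held 746 and 791 CPM of Xist, which is transcribed from an inactivated X, against 0.223 CPM in replicate 3, which goes against their male label. The 2-month libraries held 97.0, 149.6 and 238 CPM in sum over 16 hypothalamic regulators and peptides, below the 443 to 1682 CPM of the 6 and 12-month libraries, and 215 to 329 CPM over 15 midbrain and hindbrain markers. The summed level of 12 thalamus markers was 788.8 to 2722 CPM over the libraries. Replicate 5 of 24 months covered only part of the genome and was left out. In bulk RNA, fewer astrocytes and less RNA per astrocyte cannot be told apart.

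All 10 genes differed between the 9 ages in the F-test of edgeR (adjusted p from 2.46e-13 for Ntsr2 to 0.00246 for Aqp4), where 76.8% of all tested genes did. The range of the age means differed widely among them. Gjb6 spanned 12.6-fold, Ntsr2 10.4-fold, S100b 7.21-fold, Glul 6.17-fold and Slc1a2 4.43-fold between their highest and lowest age, and P5 was the lowest age in each. Slc7a10 (1.98-fold) and Gja1 (1.82-fold) were also lowest at P5. For Aqp4 (1.93-fold), Slc1a3 (1.60-fold) and Aldh1l1 (1.63-fold) the lowest age was a later one, at 18 months, 2 months and 6 months. From 3 weeks on the spans lay between 1.32-fold for Slc1a2 and 2.08-fold for Glul, and those of Aqp4 (1.93-fold) and Slc1a3 (1.60-fold) were as over all ages. Without the P5 libraries 9 of the 10 still passed the F-test, and Aldh1l1 did not (adjusted p = 0.138). Of all genes, 7250 passed in that fit, against 12991 with P5 kept.

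**Figure D1:**
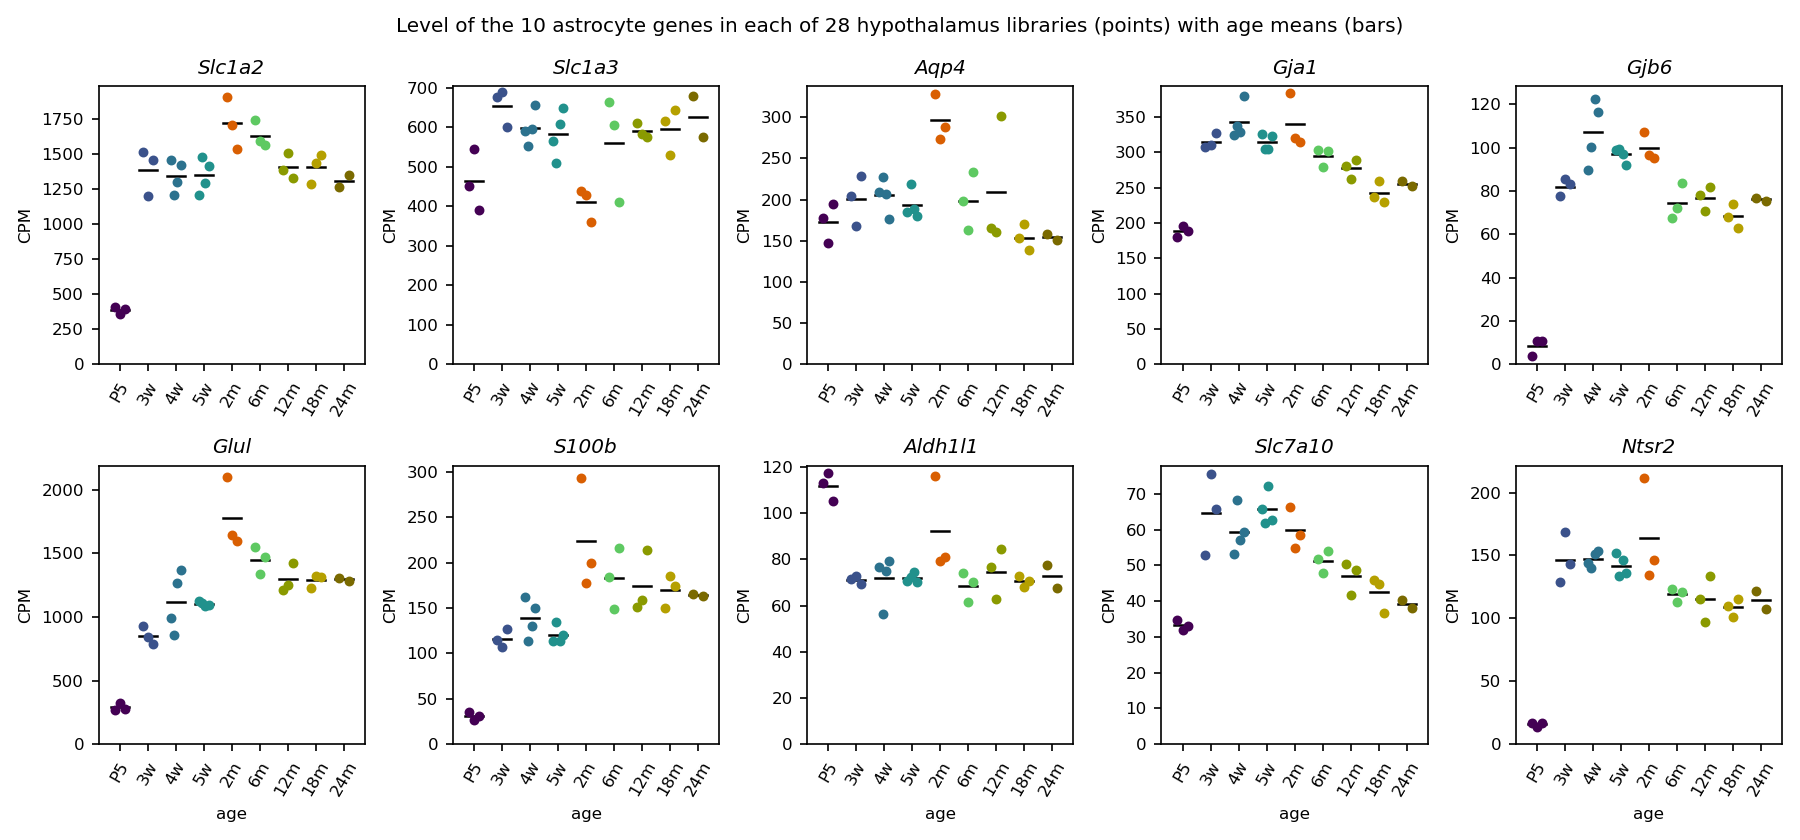
CPM of each of the 10 genes (1 panel each, linear axis from 0) in 28 libraries by age; points are libraries and bars are age means. P5 lies apart and low for Gjb6, Ntsr2, Glul, S100b and Slc1a2, is the high group for Aldh1l1, and overlaps later ages for Aqp4.

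When the 9 age means of a gene were put in order, most neighbours in that order did not differ beyond their spread. Of the 8 neighbouring pairs, 1 passed the test for each of Slc1a2, Gja1, Gjb6, Glul, S100b and Ntsr2, and it was the step down to P5. That step was from 24 months for Slc1a2 (57.0% of all genes called in that pair), from 18 months for Gja1, Gjb6 and Ntsr2 (62.0%), and from 3 weeks for Glul and S100b (59.0%). No neighbouring pair passed for Slc1a3, Aqp4, Aldh1l1 or Slc7a10. For Slc7a10 the order ran from 65.6 CPM at 5 weeks through 51.2 at 6 months and 46.95 at 12 months and 42.4 at 18 months to 39.15 at 24 months and 33.2 at P5.

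The first comparison asked how these genes changed between the first postnatal week and weaning. From P5 to 3 weeks 8 of the 10 genes rose, where 29.8% of all tested genes did, and 1 fell, where 29.3% did. The median log2 difference of the 10 was 1.27, against -0.01 over all tested genes. The 8 were the receptor gene Ntsr2, both connexins, both glutamate transporters, Glul, S100b and Slc7a10. Aldh1l1 fell, and Aqp4 did not pass the test. With P5 replicate 3 as the single P5 library, the same counts of 8 higher and 1 lower were obtained, with that library assumed to vary like the other ages.

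The glutamate handling genes started from different levels. Slc1a2 (GRCm38 chr2:102658659-102790784, plus strand) stood at 406, 362 and 396 CPM in the P5 libraries and at 1513, 1201 and 1459 CPM at 3 weeks, with no overlap (log2 difference 1.84 ± 0.10 SE, adjusted p = 1.09e-13). Its relative Slc1a3 (chr15:8634124-8710764, minus strand), the transporter that radial glia already use, stood at 452, 545 and 391 CPM at P5 and at 676, 688 and 600.4 CPM at 3 weeks. The groups of Slc1a3 did not overlap either, and the rise was smaller (0.50 ± 0.14, adjusted p = 0.00293). Glul (chr1:153899944-153909723, plus strand) went from 267, 321 and 277 CPM to 930.4, 841 and 791 CPM, a rise of 1.57 ± 0.13 (2.96-fold, adjusted p = 1.99e-10).

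The ratio of the glutamate transporters therefore rose between P5 and 3 weeks. Divided by merged exon length, Slc1a2 was at 0.584, 0.431 and 0.6585 of Slc1a3 in the P5 libraries, so that Slc1a3 was the higher in each of the 3. In CPM without that division, Slc1a2 was the higher in P5 replicate 3, at 396 against 391 CPM. In the 3-week libraries Slc1a2 was the higher in each, at 1.454, 1.135 and 1.58 times Slc1a3. The mean ratio was 0.558 ± 0.116 (SD, n = 3) at P5 and 1.39 ± 0.23 (n = 3) at 3 weeks, and it stayed at 1.135 or above in all 25 libraries from 3 weeks on. The highest values were those of 2 months, 2.585 to 2.83, where Slc1a2 was high and Slc1a3 low. Glul per Slc1a2, the synthetase over the transporter on the same scale, moved less, from 2.96 ± 0.48 at P5 to 2.45 ± 0.31 at 3 weeks and 3.92 ± 0.25 (n = 2) at 24 months.

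The connexin genes rose by very different amounts. Gjb6 (chr14:57123303-57133611, minus strand) was at 4.01, 10.8 and 10.7 CPM at P5 and at 77.7, 85.4 and 83.2 CPM at 3 weeks (log2 difference 3.26 ± 0.21, 9.58-fold, adjusted p = 3.65e-12). Gja1 (chr10:56377330-56402513, plus strand) went from 180.3, 196 and 188 CPM to 307, 309.6 and 327 CPM (0.74 ± 0.07, 1.67-fold, adjusted p = 5.61e-09). Neither gene's groups overlapped. Per kb of exon, Gja1 was 11.7, 4.74 and 4.58 times as abundant as Gjb6 in P5 replicates 1, 2 and 3. From 3 weeks on the ratio lay between 0.698 and 1.16 in all 25 libraries. This near equality rests on division by merged exons, 10257 bases for Gja1 and 2674 for Gjb6. The transcripts in use may be shorter than that. In CPM, Gja1 stayed the higher at 3 weeks, as the values above show.

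**Figure D2:**
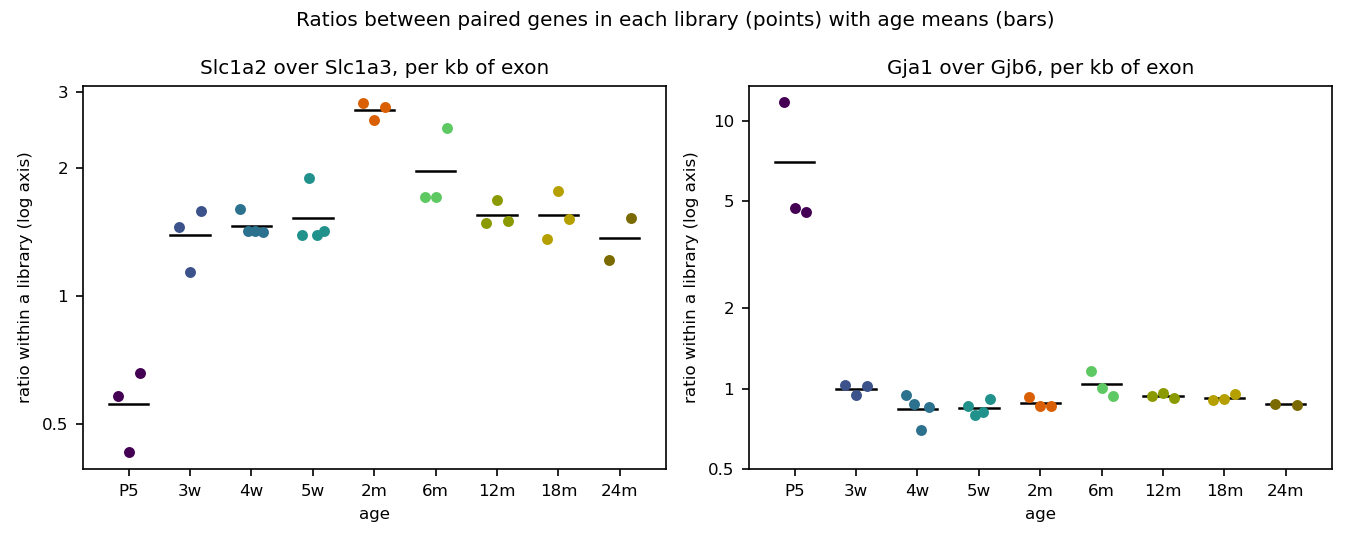
Ratio of Slc1a2 to Slc1a3 (left) and of Gja1 to Gjb6 (right), per kb of exon, in each library (points, log axis) with age means (bars). The left ratio is 0.558 on average at P5 and 1.39 at 3 weeks; the right one is 7.02 at P5 and near equality, 0.944 to 1.03, at 3 weeks.

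Ntsr2 (chr12:16653382-16660227, plus strand) behaved much as Gjb6 did, at 17.0, 13.5 and 17.1 CPM at P5 and 129, 168 and 143 CPM at 3 weeks (3.21 ± 0.15, 9.25-fold, adjusted p = 4.77e-15). S100b (chr10:76253853-76261159, plus strand) rose 3.75-fold, from 35.0, 26.5 and 31.5 CPM to 115, 107 and 126 CPM (1.91 ± 0.18, adjusted p = 2.64e-09). The amino acid transporter gene Slc7a10 (chr7:35186385-35201114, plus strand) rose from 34.6, 31.9 and 33.1 CPM to 52.9, 75.6 and 65.7 CPM (0.96 ± 0.11, adjusted p = 8.88e-08). The 3-week library with the lowest Slc7a10, replicate 1, was still above all P5 libraries. Slc7a10 shares 377 bases of exon, 17.9% of its length, with Lrp3 on the opposite strand, and as the strand setting of the counting is not given in the sources used here, its counts may hold or lack reads of Lrp3.

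Aqp4 and Aldh1l1 departed from the others. Aldh1l1 (chr6:90486427-90600203, plus strand), which encodes the cytosolic 10-formyltetrahydrofolate dehydrogenase, was at 113, 118 and 105 CPM at P5 and at 71.7, 72.7 and 69.3 CPM at 3 weeks. It fell by 0.65 on the log2 scale (SE 0.13, adjusted p = 9.7e-05), every P5 library being above every 3-week library, and by 0.57 (adjusted p = 0.0119) with P5 replicate 3 alone. Slc1a2 per Aldh1l1, on the per kb scale, was 1.195 ± 0.122 at P5 and 6.72 ± 0.90 at 3 weeks, with all 3 P5 libraries (1.06 to 1.29) below all 3-week libraries (5.68 to 7.25).

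The aquaporin gene Aqp4 (chr18:15389496-15410982, minus strand) was at 177, 148 and 194 CPM at P5 and 204, 167 and 229 CPM at 3 weeks. The groups overlapped, and the log2 difference of 0.21 (95% interval -0.16 to 0.59, adjusted p = 0.329) did not pass. The interval allows a rise of up to 0.59 on the log2 scale, so a smaller rise than that of Gja1 cannot be told from none with 3 libraries in each group.

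**Figure D3:**
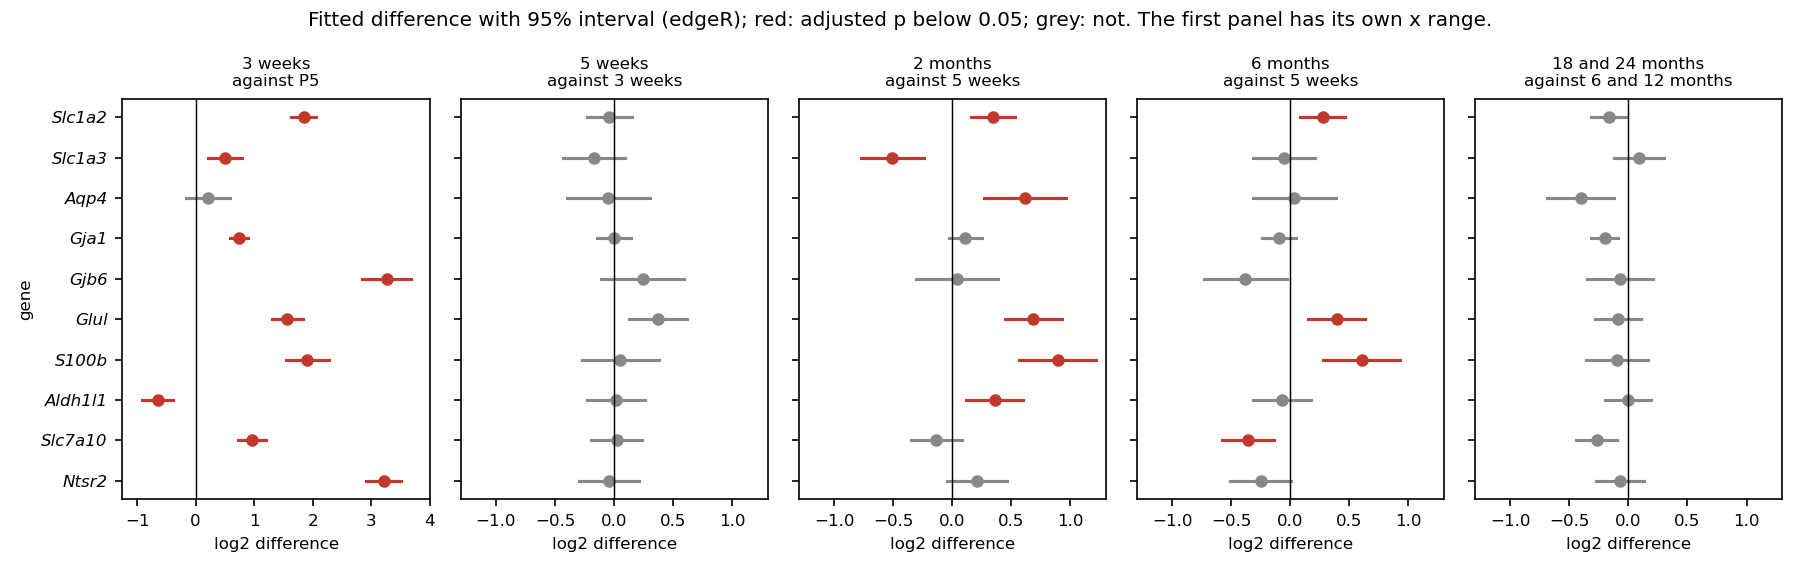
Fitted log2 difference of each gene (points) with its 95% interval (lines) in 5 comparisons of ages; red marks an adjusted p below 0.05 in edgeR and grey one above it, and the first panel has a wider axis. In the first panel 8 genes lie right of 0, Aldh1l1 lies left and the interval of Aqp4 crosses 0; in the second and the last panel no gene is red.

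The genes that surround these functions in the same pathways did not move as one block between P5 and 3 weeks. Of 30 other astrocyte genes 23 rose and 2 fell (median 0.62). Etnppl, which encodes the phospho-lyase of ethanolamine phosphate, rose by 8.19, the receptor gene Gpr37l1 by 2.05, Slc39a12 by 1.65 and Acsl6 by 1.26, while Mfge8 (-1.17) and the glycine cleavage gene Gldc (-1.01) fell. Of 15 genes of potassium and water handling at endfeet 10 rose, among them the potassium channel genes Kcnj10 (2.39) and Kcnj16 (1.49). The dystroglycan gene Dag1 alone fell (-0.64). The median of these 15 was 0.56, so the endfoot genes around Aqp4 were mostly higher at 3 weeks.

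Glutamate handling genes beyond the 3 members rose and fell at shares near those of all genes (29.8% and 29.3%). Of 14 genes 4 rose, Pcx (0.71), Slc38a1 (0.49), Slc25a18 (0.84) and the vesicular transporter gene Slc17a7 (1.77), and 5 fell, the glutamate receptor genes Grm3 (-1.64) and Grm5 (-1.24) and the transporter genes Slc1a6 (-0.78), Slc38a2 (-0.44) and Slc38a5 (-1.17). The median was 0.035. Grm5 encodes the receptor by which young astrocytes are known to sense glutamate.

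Of 10 other connexin and pannexin genes tested, 4 rose, where 29.8% of all tested genes did, and 3 fell, where 29.3% did. Among those that rose were Gjc3 (3.39) and Gjb1 (4.35), which are expressed in oligodendrocytes, and Panx2 (0.74). Panx1 (-1.41), the neuronal Gjd2 (-1.58) and the vascular Gja4 (-0.78) fell. A list of 12 oligodendrocyte genes rose from a summed 326 to 455.5 CPM at P5 to 21020 to 26290 CPM at 3 weeks. Markers of other cells moved too: all 10 microglial genes and 8 of 12 endothelial and pericyte genes rose, where 29.8% of all tested genes did. Of 14 neuronal genes 5 rose, near that share, and 2 fell, where 29.3% of all tested genes did (median 0.18). Region markers differed as well. The 16 hypothalamic regulators and peptides summed to 254.4 to 376.8 CPM at P5 and to 663.5 to 1148 CPM at 3 weeks. Of these 16 genes 6 rose and 1 fell (median 0.78), and of 12 thalamus markers 6 rose and 1 fell (median 0.93). Of 13 midbrain and hindbrain markers tested 2 rose and 2 fell. The part of these shifts in make-up and region markers in the members' values was not tested.

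The folate enzymes, the pathway of Aldh1l1, were mostly lower at 3 weeks. Of 18 such genes 11 fell and 2 rose (median -0.47). The mitochondrial relative Aldh1l2 fell by 2.04, Tyms, which makes thymidylate for DNA synthesis, by 1.51, Mthfd2 by 0.83 and Atic by 0.54, and Mthfd1 (0.27) and Mthfs (0.66) rose. Markers of radial glia and dividing progenitors fell alongside, 10 of 14 with a median of -0.77, and included Fabp7 (-3.51), Mki67 (-3.15), Top2a (-2.86) and Ptprz1 (-1.84), with Olig2 (0.40) the 1 that rose. Their summed level went from 2073 to 2212 CPM at P5 to 667 to 679 CPM at 3 weeks, and its part in the fall of Aldh1l1 was not tested.

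In serine and glycine handling, which Slc7a10 serves, 5 of 16 genes rose, near the 29.8% of all genes that did. In the same list 3 fell, where 29.3% of all genes did, and the median was -0.05. Those that rose were the serine synthesis genes Psat1 (0.41) and Phgdh (0.45), the glycine transporter gene Slc6a9 (0.44), Slc3a2 (0.20) and the D-amino acid oxidase gene Dao (2.07). The neutral amino acid transporter genes Slc1a4 (-1.2) and Slc1a5 (-1.15) and Gldc fell. Among 11 relatives of Ntsr2 and S100b, S100a1 (1.16), S100a16 (0.78), S100a13 (0.61) and the neurotensin-binding Sort1 (0.62) rose and S100a10 (-1.09) fell.

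Of 16 transcription factor genes on a list chosen for astrocytes 5 fell, near the 29.3% of all genes that did, and 2 rose, beside 29.8% of all genes. Those that rose were Tef (1.77) and Dbx2 (0.39), and those that fell were Npas3 (-0.94), Nfib (-1.06), Otx1 (-0.83), Sox2 (-0.31) and Lhx2 (-0.59). Of 16 genes of reactive astrocytes 7 rose, among them Serpina3n (0.91) and Fbln5 (1.0), and 4 fell, Emp1 (-1.90), Vim (-1.35), Cd109 (-0.71) and Cd44 (-0.44). The members thus rose between P5 and 3 weeks beside both rises and falls in lists of the same cell type.

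The sequences before the start sites of 4 members are shown because these genes mark the range of the change to 3 weeks: Gjb6 and Ntsr2 with the largest rises, Slc7a10 with a middle one and Aldh1l1 with the fall. RefSeq start sites of GRCm38.p6 were matched for 9 of the 10 members, all but Aqp4. For Slc1a2, Slc1a3 and Gja1 the bases after that start were not found in a GENCODE M21 transcript. The starts used for Slc1a2 (window from chr2:102706188) and Aldh1l1 lie inside the gene spans given above. The outer starts of these 2 genes were not examined. The sequences are read 5′ to 3′ on the gene's strand and end at the start site or where GENCODE M21 places an exon. Capitals mark CpG, the dinucleotide that can be methylated. Gjb6 is shown from chr14:57133612-57133861 on the minus strand, and on the plus strand Ntsr2 from chr12:16653220-16653381, Slc7a10 from chr7:35186135-35186384 and Aldh1l1 from chr6:90550543-90550788.
Gjb6: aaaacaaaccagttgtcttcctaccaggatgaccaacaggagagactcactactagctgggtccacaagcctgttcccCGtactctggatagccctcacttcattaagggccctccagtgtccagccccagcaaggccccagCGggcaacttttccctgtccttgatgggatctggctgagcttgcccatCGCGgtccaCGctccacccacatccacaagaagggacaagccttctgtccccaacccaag
Ntsr2: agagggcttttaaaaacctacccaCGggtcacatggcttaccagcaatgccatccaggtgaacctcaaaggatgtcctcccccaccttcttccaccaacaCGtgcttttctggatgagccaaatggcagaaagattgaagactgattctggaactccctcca
Slc7a10: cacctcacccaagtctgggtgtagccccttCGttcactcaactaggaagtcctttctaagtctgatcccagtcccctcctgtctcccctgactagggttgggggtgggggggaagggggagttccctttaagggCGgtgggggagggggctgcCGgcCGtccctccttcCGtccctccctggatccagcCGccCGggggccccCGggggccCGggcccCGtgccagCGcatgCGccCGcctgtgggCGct
Aldh1l1: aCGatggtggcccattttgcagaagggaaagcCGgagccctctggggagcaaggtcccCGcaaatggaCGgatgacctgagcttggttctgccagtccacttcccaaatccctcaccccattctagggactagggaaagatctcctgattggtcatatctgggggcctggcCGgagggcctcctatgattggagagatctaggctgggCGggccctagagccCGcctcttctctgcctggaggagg

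The 250 bases before these RefSeq starts held few CpG in most members. The median was 5 CpG in the 9 matched members and 14 over the windows of 16076 tested genes. Slc7a10, with 14, stood at that median and Glul held the most, 15. S100b and Slc1a3 held 2 and Slc1a2, at a start inside its gene span, held 1. GENCODE M21 places exons over the whole window of Glul, so its motif matches given below lie in annotated exon. GC content was 55.2% at the median of the members and 58.8% over all windows. Short motifs were searched on both strands in all windows. The half-site of nuclear factor I, TTGGC, was in 4 members (Slc1a2, Glul, S100b and Ntsr2) and in 44.5% of all windows. The SOX core ACAAT was in 1, Slc1a3 (19.0% of windows), and the STAT site TTCNNNGAA in 2, Slc1a3 and Ntsr2 (5.99%). The CCAAT box, which overlaps a TTGGC match wherever it is preceded by G, was in 4, Slc1a3, Glul, S100b and Aldh1l1 (34.6%). TATAAA was in Slc1a3 (7.24%), the E-box CACGTG in Ntsr2 (7.73%), where it lies in the stretch shown, and TGACGTCA in none (2.42%). Of the 4 genes shown, Gjb6 and Slc7a10 held none of the 7 motifs. These are matches of letters, not sites of binding.

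After weaning the next comparison asked whether the genes went on changing through puberty. Between 3 and 5 weeks none of the 10 passed the test of edgeR in either direction, where 0.703% of all genes were higher and 1.45% lower. DESeq2 also called none, and 1 member, Glul, had an unadjusted p below 0.05, as did 826 genes with higher and 1146 with lower values of 16916, so that 1 of 10 members is near the share over all genes. The median log2 difference of the members was 0.01. Glul was at 1126, 1112, 1090 and 1094 CPM at 5 weeks, above the 3 libraries of 3 weeks (log2 difference 0.37, 95% interval 0.13 to 0.62, adjusted p = 0.131). Gjb6 at 99.1, 99.5, 97.0 and 92.2 CPM was likewise above its 3-week libraries (0.24, interval -0.11 to 0.59). For the other 8 the difference lay between -0.17 (Slc1a3, interval -0.43 to 0.09) and 0.05 (S100b, interval -0.27 to 0.38).

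A difference between libraries went with these values. The small RNA Rn7s2 was at 21.7 to 29.6 CPM in all 4 libraries of 5 weeks and in replicates 3 and 4 of 4 weeks, and at 1.445 to 2.11 CPM in replicates 1 and 2 of 4 weeks and in the 3-week libraries. It was also at 59.0 and 59.96 CPM in the 24-month libraries and at 5.74 CPM in replicate 15 of 18 months. In the other libraries from 2 months on it was at 0 to 1.78 CPM. Rn7s2 thus separates 5 weeks from 2 and 6 months, and 24 months from 6 and 12 months, as well. At P5 it was at 0.08626 to 0.2006 CPM, below the 3-week libraries. The gene Bpifa2 was at 0 to 0.02792 CPM at P5 and at 33.98 to 46.98 CPM at 3 weeks. It was at 37.52 and 41.1 CPM in replicates 1 and 2 of 4 weeks, and at 0 in replicates 3 and 4. P5 and 3 weeks thus also differed in both genes, and the part of this in the members' changes was not tested. Within the 4-week age, Glul was at 1267 and 1366 CPM in replicates 3 and 4 and at 994 and 856 CPM in replicates 1 and 2. Gjb6 was at 123 and 116 CPM in the first pair and at 89.7 and 100.4 CPM in the second. With this set of libraries as a term, the difference between 3 and 5 weeks was -0.12 for Glul and -0.08 for Gjb6. In a fit of the 3 and 5-week libraries alone, both passed (adjusted p = 0.00769 for Glul and 0.0308 for Gjb6). None of the 30 other astrocyte genes passed between 3 and 5 weeks in the fit of all ages.

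**Figure D4:**
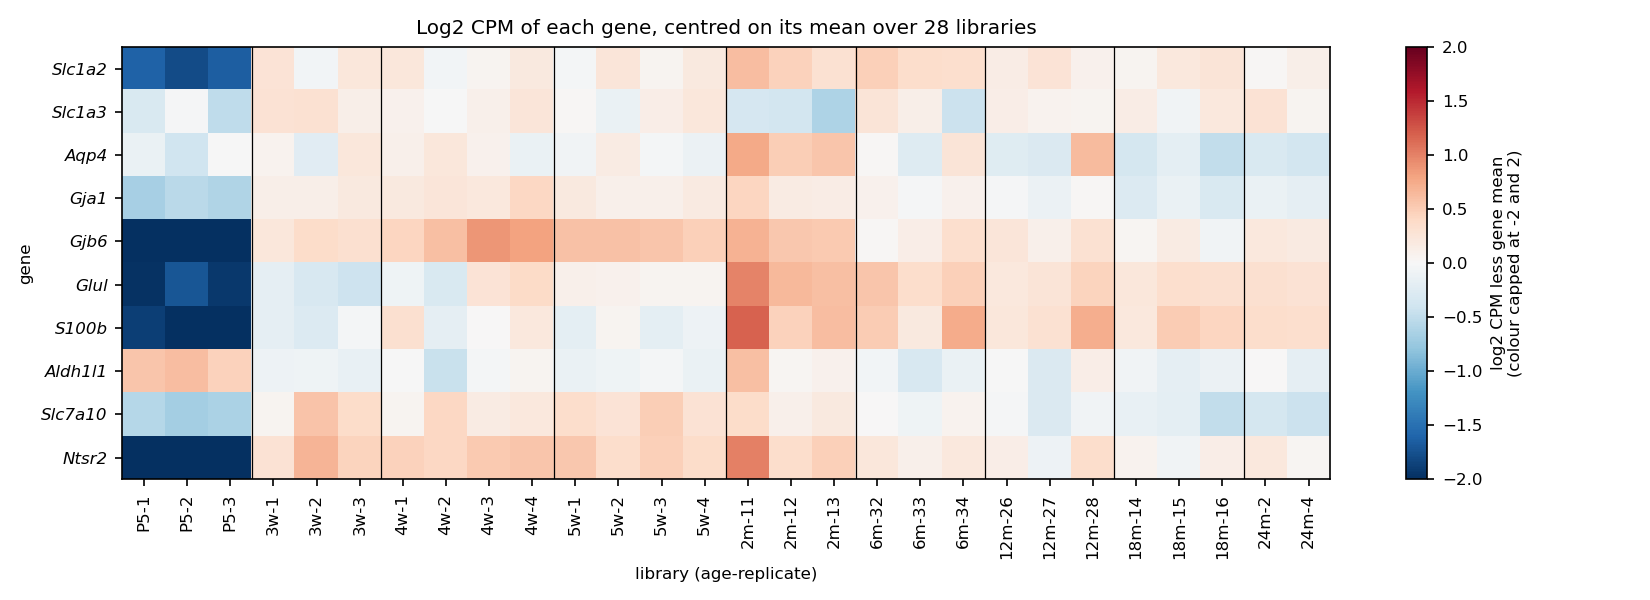
Log2 CPM of the 10 genes (rows) in 28 libraries (columns, by age and replicate), each gene centred on its own mean; red is above and blue below the mean, with the colour capped at -2 and 2. P5 is blue for all genes but Aldh1l1, and Aqp4 and Slc1a3 are pale there; replicate 11 of 2 months is the reddest column for Glul, S100b and Ntsr2.

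At 2 months 5 of the 10 genes were called higher than at 5 weeks (7.13% of all genes were) and 1 lower (9.43% were), with a median of 0.28 over the members and 0.01 over all genes. S100b was at 293, 178 and 199 CPM against 113 to 135 CPM (0.89 ± 0.16, adjusted p = 0.00063). Glul was at 2097, 1642 and 1594 CPM against 1090 to 1126 CPM (0.69 ± 0.12, adjusted p = 0.00048). Aqp4 was at 328, 274 and 287.5 CPM against 181 to 219 CPM (0.62 ± 0.17, adjusted p = 0.0144).

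The other 2 that rose were Slc1a2 (1910, 1708 and 1541 CPM, 0.35 ± 0.09, adjusted p = 0.0107) and Aldh1l1 (116, 79.4 and 81.2 CPM, 0.36 ± 0.12, adjusted p = 0.0383). Slc1a3, alone, fell, to 439, 429.5 and 361 CPM against 509 to 649 CPM at 5 weeks (-0.51 ± 0.13, adjusted p = 0.00906). In none of these 6 genes did the 2 groups overlap, as in 11.6% of all genes for higher and 13.5% for lower values. Replicate 11 of 2 months held the highest level within that age for all 10 genes. Without it 2 genes, Glul (0.54) and S100b (0.64), passed as higher, and Slc1a3 still passed as lower. Slc1a2 (0.26, adjusted p = 0.0831), Aqp4 (0.53, adjusted p = 0.0701) and Aldh1l1 (0.15, adjusted p = 0.387) did not pass without it, and Aldh1l1 did not pass without any 1 of the 5-week libraries either (adjusted p from 0.0568 to 0.0856).

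The 2-month libraries differed from those of 5 weeks in region markers as well. Of 16 hypothalamic regulators and peptides 15 were lower (median -1.92), among them Otp (-2.90), Six6 (-2.61) and the peptide hormone gene Oxt (-3.89), and their sum was 97.0 to 238 CPM against 663 to 1071 CPM at 5 weeks. Of 13 midbrain and hindbrain markers tested 6 were higher and none lower (median 2.54), among them Tfap2b (4.89) and Gata3 (4.02), and the sum of all 15 on the list was 215 to 329 CPM against 85.5 to 183 CPM, with 0 to 3 of the 15 at 0 in each 2-month library. Replicate 11 of 2 months had the lowest hypothalamic and the highest midbrain and hindbrain sum of its age. The part of these differences in the members' values at 2 months was not tested.

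The same markers varied within later ages, and some members with them. At 6 months, replicates 32, 33 and 34 held 230.1, 89.6 and 300.2 CPM of midbrain and hindbrain markers. In that order Aqp4 was at 198, 163 and 234 CPM, S100b at 184, 149 and 216 CPM and Slc1a3 at 664, 606 and 411.5 CPM. At 12 months, replicates 26, 27 and 28 held 98.5, 92.7 and 414 CPM of these markers, and Aqp4 was at 165, 160.3 and 302 CPM. Replicate 28 was thus high in both, and it also held the highest S100b of its age (214 CPM, against 151 and 159 CPM). That library also stood apart in hypothalamic, choroid plexus and reactive genes, with the highest Avp (1044 CPM), Oxt (284 CPM), Ttr (4547 CPM) and Gfap (856 CPM) of its age. Slc1a3 was at 609.9, 584 and 576 CPM in these 3.

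**Figure D5:**
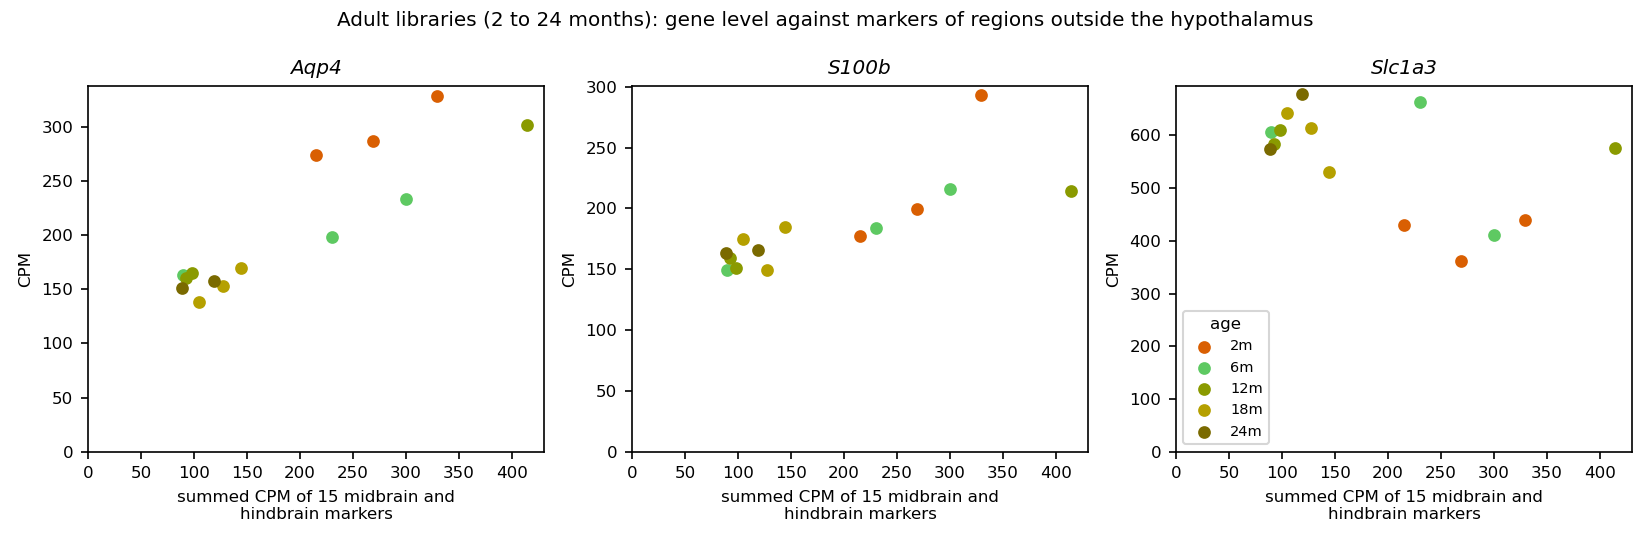
CPM of Aqp4, S100b and Slc1a3 (vertical axes) against the summed CPM of 15 midbrain and hindbrain markers (horizontal axis) in the 14 libraries of 2 to 24 months; each point is a library, coloured by age. The library of 12 months with 414 CPM of these markers has the highest Aqp4 of its age, and Slc1a3 is at 361 to 439 CPM at 2 months and at 411.5 CPM in 1 library of 6 months, below the other 10 libraries.

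Other astrocyte genes were also called higher at 2 months than at 5 weeks, 13 of 30 with 1 lower. The thyroid hormone activating deiodinase gene Dio2 (1.17), Htra1 (0.69) and Atp1b2 (0.44) were among those that rose, and Id4 (-0.70) fell. Of the 15 endfoot genes 6 rose, Kcnj10 (0.32) and Hepacam (0.31) among them, and Dag1 (-0.16) fell. Of 16 reactive genes none rose, and Serpina3n (-0.44) and Cd109 (-0.69) fell. Thus Slc1a3 fell at an age when most called astrocyte genes rose.

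At 6 months 3 members were called higher than at 5 weeks (4.58% of all genes were) and 1 lower (8.39% were). They were S100b (184, 149 and 216 CPM, 0.60 ± 0.16, adjusted p = 0.0133), Glul (1548, 1336 and 1469 CPM, 0.39 ± 0.12, adjusted p = 0.0286) and Slc1a2 (1742, 1592 and 1567 CPM, 0.27 ± 0.09, adjusted p = 0.0483). Slc7a10 fell, to 51.7, 48.0 and 54.0 CPM against 61.8 to 72.2 CPM at 5 weeks (-0.36 ± 0.11, adjusted p = 0.0271). In all 4 genes the groups did not overlap. Counting calls or not, the groups were apart with higher values in 3 members (14.3% of all genes) and with lower values in 4 (16.5%), the latter being Slc7a10, Gjb6, Ntsr2 and Gja1 (279 to 302 CPM against 304 to 326 CPM).

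Gjb6, at 67.7, 72.4 and 83.7 CPM, lay below every 5-week library without passing (-0.38, interval -0.73 to -0.03, adjusted p = 0.147). Ntsr2, at 124, 113 and 121 CPM, did likewise (-0.25, adjusted p = 0.187). The calls at 6 months rest on few libraries: without replicate 34 of 6 months no member was called higher, and leaving out 1 of the 7 libraries in turn lost Slc1a2 in 6 cases, Glul in 5, Slc7a10 in 4 and S100b in 1. Both comparisons share the 5-week libraries. Region markers differed between 5 weeks and 6 months as well. Hypothalamic regulators and peptides summed to 442.9 to 598.8 CPM at 6 months against 662.9 to 1071 CPM at 5 weeks. Of 13 midbrain and hindbrain markers tested 4 were higher (4.58% of all genes were) and none lower. Replicate 34 held the highest sum of these markers at 6 months, 300.2 CPM. The part of these differences in the members' values was not tested. Between 2 and 6 months no member passed (edgeR, 3.59% of all genes did), with Slc1a3 at 0.45 (interval 0.17 to 0.73) and Aqp4 at -0.58 (interval -0.96 to -0.21).

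Ageing was asked of the 14 libraries from 2 to 24 months, as a slope of log2 expression on age in months. Of the 10 members 5 fell, where 4.35% of all genes did, and none rose, where 3.08% did. Slc7a10 fell by 0.027 per month (SE 0.0044, adjusted p = 0.00621), from 66.2, 54.8 and 58.3 CPM at 2 months to 40.3 and 38.0 CPM at 24 months, with no overlap. Gja1 fell by 0.020 (SE 0.0041, adjusted p = 0.0113), from 383, 320.4 and 314 CPM to 259 and 252 CPM. Aqp4 fell by 0.041 (SE 0.0096, adjusted p = 0.0208), from 328, 274 and 287.5 CPM to 158 and 151 CPM.

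Slc1a2 (-0.018, adjusted p = 0.0156) and Glul (-0.020, adjusted p = 0.0333) were the others that fell. Slc1a3 had a slope of 0.023 (interval 0.0073 to 0.039, adjusted p = 0.0689) and was the only member with a slope above 0. The slopes of Gjb6 (-0.017, adjusted p = 0.0803), Ntsr2 (-0.022, adjusted p = 0.0879), S100b (-0.018, adjusted p = 0.167) and Aldh1l1 (-0.012, adjusted p = 0.305) did not pass.

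The calls of the slope were not kept without the 2-month libraries, whose region markers stood apart. Without them no member and no gene of all passed the test. Leaving them out also takes away 3 of the 14 libraries and the youngest adult age, so the loss of calls cannot show what the slopes rest on. The slope without the 2-month libraries was -0.016 for Slc1a2 (adjusted p = 0.294), -0.026 for Aqp4 (0.58), -0.015 for Gja1 (0.297), -0.022 for Slc7a10 (0.261), -0.0090 for Glul (0.571) and 0.0029 for Aldh1l1. Between 2 and 18 months 9 members passed (18.7% of all genes did), Slc1a3 being higher (0.54) and the others lower, from -0.29 for Slc1a2 to -0.95 for Aqp4. S100b did not pass (-0.40, adjusted p = 0.0975). This pair of ages uses the same 2-month libraries as the slope.

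A comparison without the 2-month libraries set 18 and 24 months (5 libraries) against 6 and 12 months (6 libraries). Region markers varied here too. Midbrain and hindbrain markers summed to 89.55 to 300.2 CPM at 6 months and to 92.69 to 413.9 CPM at 12 months. At 18 months the sum was 105 to 144.3 CPM and at 24 months 89.05 to 118.7 CPM. Of the 13 tested none passed (median -1.16), and their part in the members' differences was not tested. None of the members passed in edgeR (0.0296% of all genes, 5 genes, were higher and 0% lower), and DESeq2 called none. At an unadjusted p below 0.05, 4 were lower: Aqp4 (-0.40, interval -0.69 to -0.12), Slc7a10 (-0.27), Gja1 (-0.20) and Slc1a2 (-0.16), with adjusted p from 0.349 to 0.742. Of all 16916 genes 624 were lower and 483 higher at that threshold. With 1 library left out at a time, the difference of Aqp4 ran from -0.48 to -0.22. The log2 difference was below 0 in 8 of the 10 members and in 51.6% of all genes. Gja1 at 236, 259 and 230.2 CPM at 18 months and 259 and 252 CPM at 24 months lay below all libraries of 6 and 12 months (262 to 302 CPM), the 1 member whose groups did not overlap (0.242% of all genes were lower without overlap).

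Other lists in the slope over adult age went both ways. Of the 30 other astrocyte genes 10 fell and none rose, among them Dio2 (-0.072), Ranbp3l (-0.073) and Hepacam (-0.018). Of the 15 endfoot genes 5 fell, among them Kcnj10 (-0.030), Hepacam, Atp1b2 (-0.019) and the bicarbonate transporter gene Slc4a4 (-0.011). Of 16 reactive genes 5 rose: Serpina3n (0.068), Fbln5 (0.048), the complement gene C4b (0.092), Cd109 (0.060) and the lipocalin gene Lcn2 (0.21). Serpina3n was also the 1 gene of these lists that passed between 6 and 12 and 18 and 24 months (0.56, adjusted p = 0.0339).

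Of the other connexins and pannexins 5 of 10 fell with age, among them Gjc3 (-0.036), Gjb1 (-0.042), Panx2 (-0.026) and Gja4 (-0.032), and all 12 oligodendrocyte genes fell. Their summed level was 7478 to 9230 CPM at 24 months. Of the 13 tested midbrain and hindbrain markers 5 fell with age (Tfap2b, Gata3, Ucn, Tal1 and En2), and of the hypothalamic ones Rax, Gal and Trh rose. Their part in the members' slopes was not tested.

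Levels between genes were compared per kb of merged exon, as the mean of the 9 age means. Merged exons take in every annotated exon, from 1484 bases for S100b to 13133 for Slc1a2. They may be longer than the transcripts in use, so the order below depends on them. Glul was the most abundant (350.4 CPM per kb), followed by Slc1a2 (101) and S100b (99.0), Slc1a3 (66.1), Ntsr2 (38.25), Aqp4 (31.8), Gjb6 (28.7), Gja1 (27.8), Slc7a10 (24.3) and Aldh1l1 (17.4). Libraries of the same age were closest for Gja1, whose median SD within an age was 4.44% of the mean, and farthest apart for S100b (13.7%).

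The members' patterns were compared as the mean absolute difference of log2 CPM, each gene centred on its own mean. Over the 28 libraries the nearest pairs were Gja1 and Slc7a10 (0.134), Glul and S100b (0.158) and Gjb6 and Ntsr2 (0.194), and the farthest were Gjb6 and Aldh1l1 (0.779). Over the 25 libraries from 3 weeks on the nearest were Gja1 and Gjb6 (0.0996). The genes outside the set nearest to the members' mean pattern were Kcnj16 (0.0671), Acsl6 (0.072), Abhd3 (0.0741), Got1 (0.0751) and Sept8 (0.0766) among 12095 genes, whose median was 0.328. From 3 weeks on they were Dph3 (0.0541), Elovl5 (0.056), Mdh2 (0.0561), Idh3b (0.0562) and Cnih1 (0.0565), where the median of all was 0.163. These distances share libraries and scaling and are a description.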

How the data were processed

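RNA-seq read counts per gene were deposited by the authors, 1 table per library. Per the submitters' processing notes, HISAT2 2.1.0, HTSeq 0.9.1 and the builds mm10 and GRCm38 were used. Which annotation was counted, and whether by strand, is not given in the sources used here. The 5 HTSeq summary lines, 26.06% to 32.46% of each table of the 28 libraries used, were removed. The library with under 5000 genes counted, where these lines made 43.59%, was left out. No 2 libraries held identical values.

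Levels are TMM-scaled CPM. Differences come from the quasi-likelihood test of edgeR 4.0.16 (R 4.3.3) on all 28 libraries, or on the 14 adult ones for the slope, after filterByExpr by age. Adjusted p-values are Benjamini-Hochberg over all tested genes, two-sided, with a threshold of 0.05. DESeq2 1.42.0 was an alternative, as were other scalings, no filter, fewer libraries, a replicate block and a term for library set. The fits were tested on simulated data. Positions and exon lengths come from GENCODE M21, promoter sequences from RefSeq. Neighbouring ages in the order of means were read from the same fit.

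The members and lists were chosen with earlier results of these data known. Named were all 10 members, up to 4 called genes of each list by smallest p, every gene of a count of 5 or fewer, chosen after its values were seen where it lay outside these 4, and the 5 nearest genes by pattern. Some genes of the lists are not reported here by name. Replicate numbers were not taken to pair the libraries of different ages. Correlations of same-numbered deviations were 0.034, 0.2045 and 0.089 between P5 and 3 weeks. Those of differently numbered libraries of these ages ran from -0.26 to 0.18. Between 3 and 5 weeks the same-numbered values were -0.19, -0.32 and -0.19. So few values cannot settle whether the numbers pair the libraries.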

Additional observations from a re-analysis of the deposited data

Results flagged for a closer look

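The library of 24 months that was left out of every comparison, replicate 5, still held counts of 2 members. It counted 1385 genes, of which 1341 have a position, 1080 on chromosome 1 and 261 on chromosome 10, and 2377580 gene counts in all. Gja1 had 9266 counts there, or 3897 CPM when only the genes counted in this library enter the total, beside 3890 and 3662 in replicates 2 and 4 of that age on the same scale. Glul had 46386 counts, or 19510 on that scale, beside 19690 and 18630. S100b, which lies on chromosome 10 beyond the last gene counted there, was at 0. In 20 groups of 4 libraries (10 genes at 2 ages), none had a library that stood apart by Dixon's criterion.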

How the results depend on the processing

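With P5 and 3 weeks, 8 members higher and 1 lower were found under every alternative run except the replicate block, where Aqp4 passed too (0.21, adjusted p = 0.00632) and 9 were higher. The replicate numbers were not taken to pair the libraries. Between 3 and 5 weeks the block left 7 genes higher and 6 lower (119 and 245 without it) and no member called.

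The partial library kept: 0 members and 484 genes over 9 ages, 0 genes higher late, 0 members lower and 0 genes either way in the slope, Slc1a3 -0.20 and Aldh1l1 -0.29 late. Without P5, 7250 genes differed over ages. Fits of the compared ages only: 2 members and 182 genes higher at 5 weeks, 3 members and 686 genes higher and 848 lower at 2 months, 3 members lower and 1290 genes higher at 6 months, 0 higher late. The library set term gave 13 genes higher and 19 lower at 5 weeks, with Aqp4 0.15, Gjb6 -0.077, Glul -0.12 and Aldh1l1 -0.19. Gja1 at 5 weeks was 0.022 by gene totals, 0.0049 without filter and 0.0027 for the ages alone. In the late comparison DESeq2 called 25 genes higher and 21 lower, and leaving out 24 months left 1 higher. Aldh1l1 was there -0.00059 by RLE, -0.00055 by DESeq2 and -0.019 without 24 months. In the slope, 1 member, Slc1a3, was higher by gene totals (824 genes higher), by log2 age (1368 and 1695) and by DESeq2 (902 and 1143). Without 2 months 0 members were lower and 0 genes passed either way, with Aldh1l1 at 0.0029. The cause of these shifts was not tested.

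Leaving out 1 library at a time gave 12272 to 13191 genes and 10 members over ages, and 4609 to 4779 genes higher and 4493 to 4638 lower at 3 weeks. It gave 49 to 84 higher and 134 to 182 lower at 5 weeks, 685 to 1211 and 1093 to 1647 at 2 months (2 to 5 members higher), and 410 to 620 and 857 to 1333 at 6 months (0 to 3 members higher, 0 to 1 lower). Late it gave 1 to 7 and 0 to 2, and in the slope 163 to 628 and 280 to 969 (0 to 1 members higher, 3 to 6 lower). Differences that changed sign ran, at 5 weeks, from -0.14 to 0.023 for Slc1a2, -0.17 to 0.059 for Aqp4, -0.020 to 0.027 for Gja1, -0.0067 to 0.12 for S100b, -0.0051 to 0.026 for Aldh1l1, -0.11 to 0.14 for Slc7a10 and -0.13 to 0.059 for Ntsr2. At 2 months they ran from -0.024 to 0.069 for Gjb6 and -0.024 to 0.33 for Ntsr2, at 6 months from -0.19 to 0.12 for Slc1a3, -0.10 to 0.16 for Aqp4 and -0.13 to 0.0035 for Aldh1l1, and late from -0.0023 to 0.16 for Slc1a3 and -0.053 to 0.050 for Aldh1l1.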
